A study of Mus musculus with 3 samples.

Results

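The astrocytes with a low mitochondrial share were 364 of the 14876 barcodes of a single-cell RNA sequencing study of the mouse medial vestibular nucleus (MVN), the hindbrain nucleus that receives input from the vestibular nerve. A barcode was counted as a member when it had at least 200 detected genes and 500 unique molecular identifiers (UMIs), at most 20% of its UMIs from mitochondrially encoded genes, and at least 1 UMI for 3 or more of 6 astrocyte genes (Aqp4, Gja1, Gjb6, Slc6a11, Agt and Fgfr3). Barcodes with 3 or more of 6 ependymal genes, or with at least 5% of UMIs from the choroid plexus gene Ttr, were left out. The study compared 3 libraries from C57BL/6 mice of postnatal day 20, taken 1 day after surgery, with 1 library per condition. ULI was the MVN on the operated side of 11 mice with unilateral labyrinthectomy (UL), the surgical destruction of 1 inner ear, ULC was the opposite MVN, pooled from these 11 mice as well, and control was the MVN of 10 mice in which only the bulla was opened. The treatment field of the records gives labyrinthectomy for all 3 libraries, and control was read from its source name and the methods of the study. ULI and ULC therefore share mice, both were set against the same control library, and no gene was altered in any group. The libraries are named as 10X in the methods, as BD Rhapsody in the sample records and as Drop-seq in the series record, which was not settled here.

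Astrocytes clear glutamate and GABA from the synaptic space, return glutamine to neurons, buffer potassium and water through channels and gap junctions, store glycogen and supply lipids. After injury or loss of input they can raise intermediate filament genes, a state called reactive. Neuronal activity or handling can switch on immediate early genes, many of them transcription factor genes, which respond within minutes and without new protein synthesis. In the vestibular nuclei, loss of one labyrinth removes the tonic input of one side, and the behavioural recovery that follows is called vestibular compensation.

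Members were 112 of the 4715 ULI barcodes that passed the gene and UMI limits, 76 of 4428 ULC barcodes and 176 of 4600 control barcodes. Their shares were 2.38% in ULI (exact binomial 95% interval 1.96 to 2.85), 1.72% in ULC (1.35 to 2.14) and 3.83% in control (3.29 to 4.42). Members held 305202 UMIs in ULI, 206011 in ULC and 637028 in control, with a median of 2153, 1480 and 2720 UMIs per barcode in that order of libraries. Their median mitochondrial share was 11.5% in ULI, 11.7% in ULC and 11.8% in control. Because each condition has 1 library, no test between conditions could be made and cells were not used as replicates. Values below are counts per 1000000 UMIs (CPM), taken on the UMIs summed over the members of a library, ratios are log2 ratios of these CPM, and every interval is an exact 95% interval that covers counting error only.

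The mitochondrial limit removed a larger share of the astrocyte-marker barcodes in the UL libraries than in control. Of the barcodes with 3 or more astrocyte markers, 293 in ULI, 202 in ULC and 349 in control, those within the limit were 123, 83 and 226, before the ependymal and Ttr limits. The barcodes that met every other criterion but exceeded 20% numbered 170 in ULI, 116 in ULC and 121 in control, so members were the smaller group in both UL libraries and the larger one in control. The members that ended up in the comparison are therefore a part of the astrocyte-marker barcodes whose size relative to the rest differs between libraries.

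**Figure D1:**
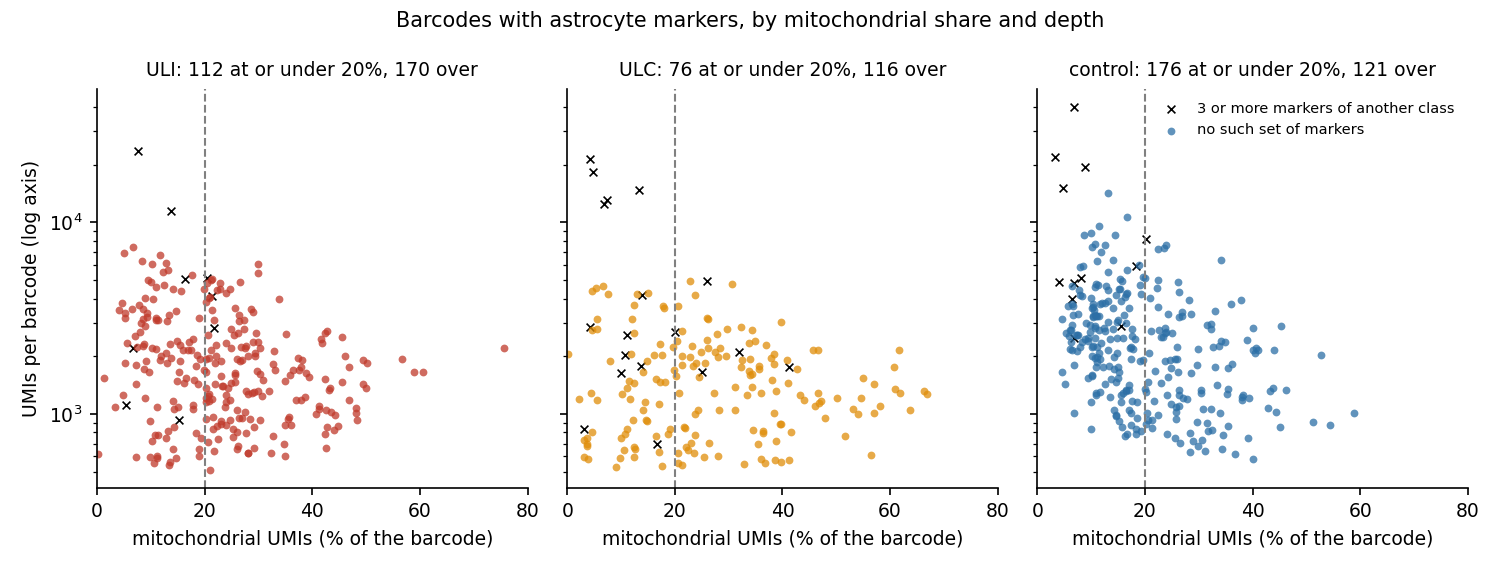
UMIs per barcode (log axis) against the percent of UMIs from mitochondrially encoded genes for astrocyte-marker barcodes of ULI, ULC and control, with the 20% limit as a dashed line and barcodes with 3 or more markers of another class as crosses. Members lie at or left of the limit, 112 in ULI, 76 in ULC and 176 in control, and 11 of the 15 deepest members, counting 5 per library, are crosses.

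Some members carried the markers of another cell type as well. A barcode with at least 3 of 6 markers of another class is called mixed here, and 31 of the 364 members were mixed, 6 in ULI, 14 in ULC and 11 in control. Mixed barcodes were deep, and held 14.6% of the member UMIs in ULI, 48.1% in ULC and 19.9% in control. They made up 11 of the 15 deepest members, counting 5 per library. Oligodendrocyte markers occurred in 12 of them, oligodendrocyte precursor markers in 8 (6 of these in ULC), microglia markers in 6 (all in control) and neuron markers in 4. Without mixed barcodes 333 members remained, 106 in ULI, 62 in ULC and 165 in control, with 260725, 106939 and 510433 UMIs. Each result is given for all members and, where named, without mixed barcodes. Whether mixed barcodes were 2 cells in 1 droplet or well was not tested.

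The marker lists of the other classes show what remained after this step. The summed level of the 6 microglia markers in members was 52.4 CPM in ULI, 24.3 in ULC and 463 in control, and without mixed barcodes 53.7, 37.4 and 54.9 CPM, against 11053, 9462 and 16330 CPM in microglia-like barcodes. The 6 oligodendrocyte markers summed to 1409 CPM in ULI, 1845 in ULC and 1917 in control, and to 196, 131 and 182 CPM without mixed barcodes. The 6 oligodendrocyte precursor markers summed to 108 CPM in ULI, 1180 in ULC and 273 in control, and to 123, 168 and 145 CPM without mixed barcodes. All 6 ependymal markers were at 0 in ULI members, and they summed to 53.4 CPM in ULC and 26.7 CPM in control. The choroid plexus list summed to 338 CPM in ULI, 4175 in ULC and 53.4 in control, and to 291, 2113 and 58.8 CPM without mixed barcodes, nearly all of it Ttr.

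The leading genes were those of astrocytes. By the median over the libraries of the fold against all other barcodes, the 10 highest genes were Agt (angiotensinogen), Gjb6 and Gja1 (the gap junction proteins connexin 30 and connexin 43), Aqp4 (the water channel aquaporin 4), Atp13a4 (a P-type ATPase), Slc4a4 (a sodium bicarbonate cotransporter), Slc6a11 (the GABA transporter GAT3), Ntsr2 (a neurotensin receptor), Acsbg1 (an acyl-CoA synthetase) and Slc1a3 (the glutamate transporter GLAST). Their median folds lay between 36.4 and 60.6. The rule selected 5 of these 10, and the whole profile belongs to barcodes it selected, so these folds only describe the members. Of genes outside the rule, Slc1a2 (the glutamate transporter GLT-1) was detected in 105 of the 112 ULI members, 71 of the 76 ULC members and 172 of the 176 control members. Per 10000 UMIs of a cell, the median member had 99.5 Slc1a2 UMIs in ULI, 48.4 in ULC and 66.8 in control, and the highest member had 508, 461 and 236.

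The number of rule markers detected differed by library, as did depth, with a median of 2153 UMIs in ULI members, 1480 in ULC and 2720 in control, whose part in it was not tested. All 6 rule markers were detected in 29.5% of ULI members, 35.5% of ULC members and 56.8% of control members, and exactly 3 in 17.9%, 23.7% and 4.5%. Just inside the limit, the 46 members with exactly 3 markers had 2291 CPM of Slc1a2, and the 32 of them that were not mixed had 10168 CPM. Just outside it, the 91 barcodes with 2 markers had 212 CPM of Slc1a2, and the 19 of them without another class had 1690 CPM. At the mitochondrial limit, the 31 members between 18% and 20% had 16990 CPM of Slc1a2 in ULI, 7752 in ULC and 8172 in control, and the 57 barcodes between 20% and 22% had 12066, 9055 and 13053 CPM, so the members were higher in ULI and lower in the other libraries.

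A gene was counted as measured in a comparison when the pair of libraries held at least 50 UMIs for it in members, and as 2-fold different when its ratio reached that size, with no test. Between ULI and control 3408 genes were measured, of which 214 (6.28%) were at least 2-fold higher and 291 (8.54%) at least 2-fold lower in ULI. Between ULC and control 3184 genes were measured, of which 351 (11%) were higher and 325 (10.2%) lower in ULC. Between ULI and ULC 1975 genes were measured, of which 198 (10%) were higher and 216 (10.9%) lower in ULI. Without mixed barcodes the shares were 8.98% higher and 7.67% lower of 2750 genes for ULI to control, 10.1% and 13.8% of 2145 for ULC to control, and 10.2% and 7.6% of 1303 for ULI to ULC.

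The split into higher and lower depended on the scaling. Trimmed mean of M-values (TMM) factors moved the median of all genes by -0.11 on the log2 scale for ULI to control, by -0.22 for ULC to control and by 0.11 for ULI to ULC. With them 154 genes were higher and 354 lower in ULI than in control, 225 higher and 504 lower in ULC than in control, and 270 higher and 187 lower in ULI than in ULC. Size factors by the median of ratios gave 245 higher and 461 lower for ULC to control and 275 higher and 185 lower for ULI to ULC. Ratios nearer to 0 than these shifts, and of the opposite sign to the shift, have no direction that is common to all scalings.

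The median of the astrocyte identity list lay near control in ULI and below control in ULC. By the count of 2-fold lower genes the order was otherwise without mixed barcodes, where ULI had more of them than ULC. It holds 24 genes that mark astrocytes, of which 23 were measured in both comparisons to control. In ULI 0 of the 23 were 2-fold higher and 6 were 2-fold lower than in control, with a median log2 ratio of -0.03, beside a median of 0.07 over all genes. In ULC 0 were higher and 7 lower, with a median of -0.55 beside 0.05 over all genes. Without mixed barcodes ULI had 5 lower genes and a median of -0.17, whereas ULC had 1 lower and 1 higher gene and a median of -0.42. Over all genes 8.54% were lower in ULI and 10.2% in ULC, and 7.67% and 13.8% without mixed barcodes.

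Among the identity genes, the glutamate transporters had their highest levels in ULI. Slc1a2 (chr2:102658659-102790784, mm10) was at 10105 CPM in ULI, 5388 in ULC and 6857 in control, and at 10739, 9117 and 8121 CPM without mixed barcodes. Its log2 ratio was 0.56 (0.49 to 0.63) for ULI to control, 0.40 without mixed barcodes, and 0.91 for ULI to ULC, but 0.24 without mixed barcodes. Slc1a3 was at 6189 CPM in ULI, 2446 in ULC and 5234 in control, and at 6739, 3656 and 6240 CPM without mixed barcodes. ULC was thus the low library for Slc1a3 in both sets, with a ratio to control of -1.10 (-1.24 to -0.96), and of -0.77 without mixed barcodes. Glul (glutamine synthetase, which turns glutamate into glutamine) was at 9289 CPM in ULI, 4878 in ULC and 7905 in control. The list for glutamate and GABA handling had 12 of 14 genes measured. Of these 0 in ULI and 4 in ULC (1 higher and 3 lower) were 2-fold different from control. Without mixed barcodes 0 of 11 in ULI and 1 of 10 in ULC were 2-fold different. The shares over all genes in ULC were 11% higher and 10.2% lower, and 10.1% and 13.8% without mixed barcodes.

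**Figure D2:**
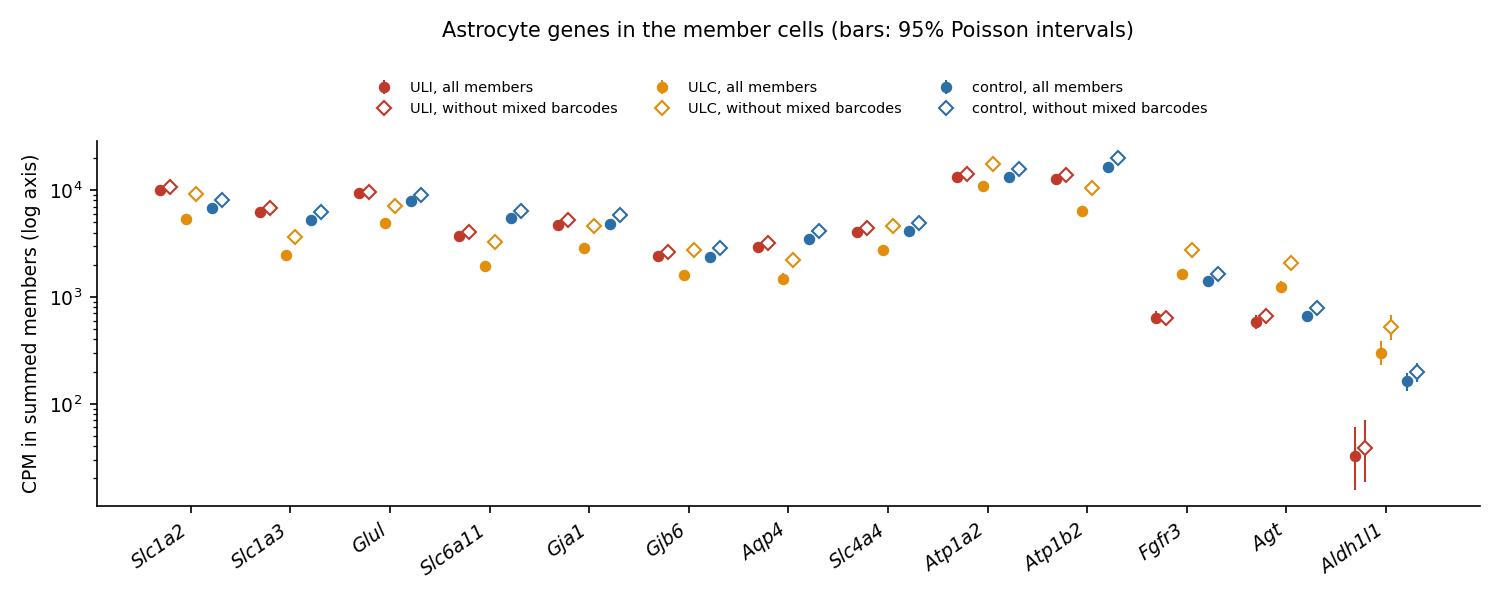
CPM (log axis) of astrocyte genes summed over members of ULI, ULC and control, for all members and without mixed barcodes, with exact Poisson 95% intervals. Fgfr3 and Aldh1l1 are lowest in ULI, Agt is highest in ULC, and the ULC values of Slc1a2 and Slc6a11 move towards the other libraries when mixed barcodes are left out.

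The rule markers themselves were highest in different libraries. Slc6a11 (chr6:114131241-114249952), which takes up GABA, was at 3676 CPM in ULI, 1932 in ULC and 5424 in control, and at 4020, 3254 and 6416 CPM without mixed barcodes, so control was highest in both sets. Its ratio was -1.49 (-1.64 to -1.34) for ULC to control, -0.98 without mixed barcodes. Agt (chr8:124556534-124569706), the precursor of angiotensin peptides, was at 583 CPM in ULI, 1243 in ULC and 669 in control. ULC was 0.89 (0.66 to 1.12) above control on the log2 scale, and 1.39 without mixed barcodes. Fgfr3 (chr5:33721674-33737068), a receptor for fibroblast growth factors, was at 639 CPM in ULI, 1646 in ULC and 1422 in control. ULI was the low library, with a ratio of -1.15 (-1.39 to -0.93) to control and -1.36 (-1.63 to -1.11) to ULC. Aqp4 was at 2926 CPM in ULI, 1485 in ULC and 3460 in control, a ratio of -1.22 for ULC to control and -0.89 without mixed barcodes. Gja1 was at 4721 CPM in ULI, 2845 in ULC and 4782 in control, so ULI and control were close for this gene.

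After each barcode was thinned to 500 UMIs, the shares of members with a UMI of Slc6a11, Agt or Fgfr3 ranked the libraries alike. The rule admitted barcodes by these UMIs, so the shares describe the members and are no separate support for the differences. Slc6a11 was detected in 75% of ULI members (65.9 to 82.7), 61.8% of ULC members (50 to 72.8) and 90.9% of control members (85.7 to 94.7), and unthinned in 96.4%, 85.5% and 99.4%. In microglia-like barcodes, whose median depths were 2416.5, 2855 and 3166.5 UMIs, the thinned share was 0.796%, 0% and 0.303%. Slc6a11, Agt and Fgfr3 are rule markers, and microglia-like barcodes hold under 3 of these markers, so the gap between members and microglia-like barcodes follows from the rule. Agt was detected in 17.9%, 51.3% and 30.1% of thinned ULI, ULC and control members, and in 52.7%, 67.1% and 67.6% unthinned. The thinned Agt share in microglia-like barcodes was 0% in ULI, 0% in ULC and 0.0607% in control. Fgfr3 was detected in 18.8%, 63.2% and 51.1% of thinned members and in 52.7%, 85.5% and 88.6% unthinned. The thinned Fgfr3 share in microglia-like barcodes was 0.133% in ULI, 0.836% in ULC and 0.0607% in control.

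Aldh1l1 and Mfge8 were low in ULI. Aldh1l1 (chr6:90486427-90600203), the folate enzyme widely used as an astrocyte marker, had 10 UMIs in ULI, 62 in ULC and 103 in control, or 32.8 CPM (15.7 to 60.3), 301 CPM (231 to 386) and 162 CPM (132 to 196). ULI lay below both other libraries and ULC above control, with ratios of -2.30 (-3.41 to -1.37) for ULI to control, 0.90 (0.42 to 1.36) for ULC to control and -3.20 (-4.33 to -2.23) for ULI to ULC. In ULI 5 members carried an Aldh1l1 UMI, against 23 in ULC and 51 in control. With members limited to 10% mitochondrial UMIs the Aldh1l1 ratio for ULI to control was -0.88. Mfge8 (chr7:79133768-79149060), a secreted protein that bridges dying cells and phagocytes, had 5 UMIs in ULI, 29 in ULC and 106 in control, a ratio of -3.34 (-5.00 to -2.08) for ULI to control with and without mixed barcodes. Mfge8 was also lower in the 2 other classes in which it was measured, with a median ratio of -1.55.

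Genes for ion, water and coupling functions were close to control in ULI. Of the 18 genes on this list 14 were measured, with 0 higher, 2 lower and a median of -0.03. Among all genes measured 6.28% were higher and 8.54% lower. The 2 lower genes of the list were Mlc1 and Dag1. Mlc1, a membrane protein of astrocyte endfeet, was at 226 CPM in ULI, 490 in ULC and 564 in control, a ratio of -1.32 (-1.71 to -0.94), and of -0.46 at a 10% mitochondrial limit. Dag1 (dystroglycan, which anchors endfeet to the basal lamina) was at 134 CPM in ULI, 403 in ULC and 355 in control, a ratio of -1.40 (-1.92 to -0.92), and its median ratio in 5 other classes was -1.30. Hepacam, the partner of Mlc1 at the membrane, was at 537 CPM in ULI, 854 in ULC and 874 in control, a ratio of -0.67 (-0.98 to -0.35) for ULI to ULC. The sodium pump subunit Atp1b2 was at 12742 CPM in ULI, 6417 in ULC and 16492 in control, a ratio of -1.36 for ULC to control and -0.93 without mixed barcodes.

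More immediate early genes were 2-fold higher than 2-fold lower in members of both UL libraries, set against control. Of the 22 genes on the list 12 were measured between ULI and control, 5 were 2-fold higher and 0 lower, and the median was 0.78. Between ULC and control 13 were measured, 5 were higher and 0 lower, and the median was 0.73. Over all genes 6.28% were higher in ULI than in control and 11% in ULC. Without mixed barcodes 9 of 10 measured genes were 2-fold higher in ULI (median 1.89) and 6 of 8 in ULC (median 1.53), where the background over all genes was 8.98% and 10.1%. The list summed to 5432 CPM in ULI, 5577 in ULC and 2237 in control, and to 6102, 6041 and 1610 CPM without mixed barcodes, so without mixed barcodes the list was lower in control and higher in the UL libraries. Between ULI and ULC 0 of 11 genes were 2-fold higher and 1 was lower, with a median of 0.04. The median over the other cell classes of this list's median ratio was 0.04 for ULI to control and 0.91 for ULC to control.

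Fos (chr12:85473890-85477273), a subunit of the AP-1 transcription factor, had 664 UMIs in ULI, 376 in ULC and 276 in control, or 2176 CPM (2013 to 2348), 1825 CPM (1645 to 2019) and 433 CPM (384 to 488). Its ratio to control was 2.33 (2.12 to 2.54) in ULI and 2.07 (1.85 to 2.30) in ULC, and 2.40 and 2.27 without mixed barcodes. In the other classes the median Fos ratio was 0.76 for ULI and 1.24 for ULC. Fos UMIs were found in 83 of 112 ULI members, 44 of 76 ULC members and 62 of 176 control members. After thinning the shares were 53.6% in ULI, 38.2% in ULC and 19.3% in control, whereas those of microglia-like barcodes were 45.6%, 34.8% and 39.0%, so the control members were below microglia-like barcodes of their own library and the ULI members were not. Unthinned Fos shares were 74.1% in ULI, 57.9% in ULC and 35.2% in control for members, and 73.2%, 63.8% and 76.9% for microglia-like barcodes. Since microglia-like barcodes also carried Fos, this share is no measure of free RNA.

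Egr1, a zinc finger transcription factor, was at 616 CPM in ULI, 684 in ULC and 154 in control, with ratios of 2.0 (1.64 to 2.37) for ULI and 2.15 (1.77 to 2.54) for ULC (0.81 for ULC among members with at least 4 rule markers). Klf4 (chr4:55527143-55532466), another zinc finger factor, was at 200 CPM in ULI, 194 in ULC and 44 in control, with ratios of 2.18 (1.52 to 2.89) and 2.14 (1.41 to 2.89). Nr4a1 (chr15:101254269-101274795), an orphan nuclear receptor, was at 115 CPM in ULI, 146 in ULC and 45.5 in control, with ratios of 1.33 (0.58 to 2.10) and 1.68 (0.89 to 2.47). Fos, Egr1, Klf4 and Nr4a1 were thus the genes of this list that were 2-fold higher in both UL libraries, and their ratios of ULI to ULC lay between -0.34 and 0.25. Dusp1, a phosphatase that ends MAP kinase signalling, was at 344 CPM in ULI, 262 in ULC and 148 in control, a ratio of 1.22 (0.81 to 1.64) for ULI to control. Errfi1, an inhibitor of the EGF receptor, was at 223 CPM in ULI, 252 in ULC and 65.9 in control, with ratios of 1.76 (1.18 to 2.35) and 1.94 (1.32 to 2.56).

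**Figure D3:**
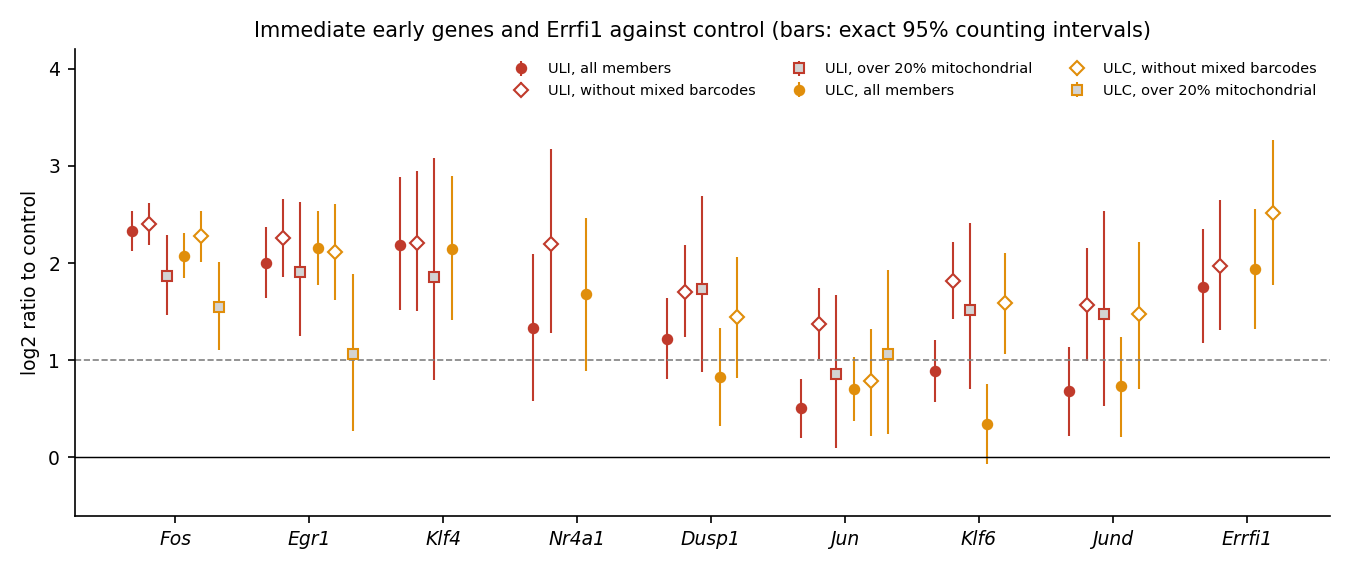
Log2 ratio to control of 8 immediate early genes and Errfi1 in ULI and ULC, for all members, without mixed barcodes and for barcodes over 20% mitochondrial, with exact 95% counting intervals and a dashed line at 2-fold; values under 50 UMIs are not drawn. Fos, Egr1, Klf4, Nr4a1 and Errfi1 lie above 2-fold for all members of both libraries, with Fos at 2.33 in ULI and 2.07 in ULC.

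Fosb was high in the ULC library alone. It had 14 UMIs in ULI, 84 in ULC and 17 in control, a ratio of 3.93 (3.17 to 4.78) for ULC to control and of -3.15 (-4.08 to -2.33) for ULI to ULC. The median Fosb ratio in 6 other classes was 2.93 for ULC to control and -3.46 for ULI to ULC, so Fosb was high in ULC across cell types.

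The 250 bases before the start of Fos, Klf4 and Nr4a1 are shown because these genes were 2-fold higher in members of both UL libraries (the promoter of Egr1, the other such gene, is not shown), and because the cyclic AMP response element (CRE), bound by the activity-dependent factor CREB, is a known element of immediate early gene promoters. The sequences are from RefSeq on GRCm38.p6, written 5′ to 3′ on the strand of the gene, and capitals mark the CRE half-site TGACG, or CGTCA where it lies on the other strand.
Fos: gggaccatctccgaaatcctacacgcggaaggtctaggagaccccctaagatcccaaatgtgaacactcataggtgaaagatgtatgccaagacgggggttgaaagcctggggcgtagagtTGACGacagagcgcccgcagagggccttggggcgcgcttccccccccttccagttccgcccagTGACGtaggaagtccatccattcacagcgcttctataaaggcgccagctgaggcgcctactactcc
Klf4: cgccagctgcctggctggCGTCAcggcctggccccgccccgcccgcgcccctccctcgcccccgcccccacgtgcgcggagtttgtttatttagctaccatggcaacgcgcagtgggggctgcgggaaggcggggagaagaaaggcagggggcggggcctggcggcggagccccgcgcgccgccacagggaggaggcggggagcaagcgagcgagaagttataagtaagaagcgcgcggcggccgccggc
Nr4a1: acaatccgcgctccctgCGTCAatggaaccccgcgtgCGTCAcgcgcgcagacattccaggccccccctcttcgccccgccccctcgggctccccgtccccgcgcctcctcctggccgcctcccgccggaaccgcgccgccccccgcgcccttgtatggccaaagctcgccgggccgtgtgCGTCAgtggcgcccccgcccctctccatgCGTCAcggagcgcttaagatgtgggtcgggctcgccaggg
The Fos window was chr12:85473640-85473889 on the plus strand and held 2 half-sites, which began 129 and 66 bases before the start. The Klf4 window was chr4:55532476-55532725 on the minus strand and held 1 half-site, 232 bases before the start. The Nr4a1 window was chr15:101266596-101266845 on the plus strand and held 4 half-sites, 233, 213, 69 and 40 bases before the start, all in the CGTCA orientation. Of 32851 windows of this length in the RefSeq table, 17.8% held at least 1 half-site. The full element TGACGTCA, which contains a half-site on each strand, occurred in 1.55% of windows and the CArG box bound by serum response factor in 1.47%, and neither had a match in these 3 windows.

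Reactive genes were mostly too low to measure. Of 38 genes of this list 6 were measured in ULI and ULC against control. In ULI 1 was 2-fold higher, beside 6.28% of all genes. In ULC 2 were higher and 1 lower, beside 11% and 10.2% of all genes. Gfap, the intermediate filament gene used to mark reactive astrocytes, was at 383 CPM (317 to 459) in ULI, 218 CPM (159 to 292) in ULC and 204 CPM (171 to 242) in control, a ratio of 0.91 (0.54 to 1.28) for ULI to control and 0.82 without mixed barcodes. It was detected in 26 of 112 ULI members, 11 of 76 ULC members and 41 of 176 control members, so the ULI level came from few cells. In the barcodes over the mitochondrial limit the Gfap ratio for ULI to control was -0.98, in the other direction. Vim (vimentin) had 51 UMIs in ULI, 56 in ULC and 14 in control, a ratio of 2.93 (2.05 to 3.89) for ULI to control and 2.83 without mixed barcodes. Vim UMIs were found in 12 ULI members, 7 ULC members and 12 control members. Lcn2 had 1, 0 and 0 UMIs in ULI, ULC and control, and C3 had 0 in all 3 libraries.

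Stat3, the transcription factor of cytokine signalling in reactive glia, was at 88.5 CPM in ULI, 199 in ULC and 59.7 in control, a ratio of 1.74 (1.07 to 2.41) for ULC to control, where the other classes had a median of 1.59. S100a10, an annexin partner, had 66 UMIs in ULI, 9 in ULC and 78 in control, a ratio of -1.49 (-2.67 to -0.49) for ULC to control and 2.31 (1.30 to 3.50) for ULI to ULC.

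The metallothioneins, small proteins that bind zinc and copper, split in ULC. Mt3 (chr8:94152607-94154146) was at 121 CPM in ULI, 1024 in ULC and 141 in control, a ratio of 2.86 (2.5 to 3.23) for ULC to control and -3.08 (-3.62 to -2.57) for ULI to ULC. Mt2 (chr8:94172664-94173568) was at 292 CPM in ULI, 77.7 in ULC and 392 in control, a ratio of -2.34 (-3.17 to -1.61) for ULC to control and 1.91 (1.13 to 2.78) for ULI to ULC. Mt1 (chr8:94179082-94180327), next to Mt2, was at 1504 CPM in ULI, 879 in ULC and 1961 in control, a ratio of -1.16 (-1.39 to -0.93) for ULC to control. Mt3 was therefore high and Mt1 and Mt2 were low in ULC, with ratios of 2.82, -1.09 and -2.08 without mixed barcodes. The other classes that expressed these genes had a ratio to control in ULC of 1.99 for Mt3 (1 class) and 1.24 for Mt2 (1 class), so Mt2 was lower in members and higher in that class. Thinned members with an Mt3 UMI were 3.57% in ULI, 26.3% in ULC and 7.95% in control, and 11.6%, 50% and 19.9% unthinned. In microglia-like barcodes the thinned Mt3 share was 0%, 0.279% and 0%.

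Counts for the stress gene lists differed with and without mixed barcodes. The glucocorticoid list had 3 of 10 measured genes higher and 1 lower in ULI than in control (median 0.64). In ULC 3 of 9 were higher and 1 lower (median 0.48). The median of this list over the other classes was 0.26 for ULI and 0.84 for ULC. Without mixed barcodes 2 were higher and 1 lower of 8 in ULI, and 3 higher and 1 lower of 8 in ULC. The gene lower in ULI was Ddit4, an inhibitor of mTOR signalling that glucocorticoids induce, at 62.3 CPM in ULI, 325 in ULC and 146 in control, a ratio of -2.39 (-3.20 to -1.63) for ULI to ULC, beside -2.28 in the other classes. The heat shock list had 2 of 13 genes higher and 3 lower in ULI and 4 of 12 higher in ULC. Without mixed barcodes 4 were higher and 1 lower of 10 in ULI, and 2 higher of 8 in ULC. Beside both stress lists, 6.28% of all genes were higher and 8.54% lower in ULI, and 11% and 10.2% in ULC. Without mixed barcodes these shares were 8.98% and 7.67% in ULI, and 10.1% and 13.8% in ULC. Hspa1b (inducible Hsp70) was at 39.3 CPM in ULI, 699 in ULC and 261 in control, but at 42.2, 131 and 50.9 CPM without mixed barcodes.

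In energy metabolism 2 of 13 measured genes were 2-fold higher and 0 lower in ULI than in control, with and without mixed barcodes, where 6.28% and 8.98% of all genes were higher. These were Ppp1r3c, a subunit that directs phosphatase to glycogen, and Pfkfb3, which makes the activator of glycolytic phosphofructokinase. Ppp1r3c was at 341 CPM in ULI, 189 in ULC and 133 in control, a ratio of 1.35 (0.93 to 1.78). Pfkfb3 was at 213 CPM in ULI, 68.0 in ULC and 98.9 in control, a ratio of 1.11 (0.58 to 1.63) to control and 1.65 (0.80 to 2.60) to ULC, and of 0.17 and 0.44 after thinning. Pfkfb3 was also higher in ULI than in control in the other classes, with a median ratio of 1.05.

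More lipid genes were 2-fold lower than 2-fold higher in both UL libraries. Of 24 genes for cholesterol and lipid metabolism 18 were measured in ULI to control, 0 higher and 7 lower with a median of -0.40, and 19 in ULC to control, 1 higher and 5 lower with a median of -0.23, where 8.54% and 10.2% of all genes were lower. Without mixed barcodes 0 were higher and 6 lower of 15 in ULI, and 1 higher and 3 lower of 16 in ULC, where 7.67% and 13.8% of all genes were lower. The median of this list over the other classes was -0.25 in ULI and -0.45 in ULC, so the other classes were below 0 as well. Apoe, the main lipid carrier of astrocytes, was at 1356 CPM in ULI, 1442 in ULC and 3887 in control, with ratios of -1.52 (-1.67 to -1.37) and -1.43 (-1.61 to -1.26). In the other classes the median Apoe ratio was -1.42 for ULI and -0.43 for ULC. Clu (clusterin, another lipid carrier) was at 472 CPM in ULI, 1112 in ULC and 1303 in control, a ratio of -1.47 (-1.73 to -1.21) for ULI to control, and of -0.82 at a 10% mitochondrial limit. Dhcr7, the last enzyme of cholesterol synthesis, was at 26.2 CPM in ULI, 48.5 in ULC and 124 in control, a ratio of -2.24 (-3.50 to -1.19) for ULI to control. Srebf1, a transcription factor of lipid synthesis, was at 105 CPM in ULI, 53.4 in ULC and 231 in control, a ratio of -2.11 (-3.15 to -1.23) for ULC to control.

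The medians of matrix and synapse-regulating genes were below 0 in both UL libraries. In ULI 0 of 13 were 2-fold higher and 2 lower (median -0.46), and without mixed barcodes 4 of 13 were lower (median -0.60). In ULC 2 of 14 were higher and 5 lower (median -0.54), and without mixed barcodes 0 of 12 were higher and 3 lower (median -0.69). Of all genes 8.54% were lower in ULI and 10.2% in ULC, and 7.67% and 13.8% without mixed barcodes. Higher were 6.28% in ULI and 11% in ULC, and 8.98% and 10.1% without mixed barcodes. The median of this list over the other classes was -0.21 for ULI and -0.04 for ULC. Ncan (neurocan, a proteoglycan of perineuronal nets) was at 161 CPM in ULI, 170 in ULC and 440 in control, a ratio of -1.45 (-1.92 to -1.01) for ULI to control. Bcan (brevican, of the same family) was at 1415 CPM in ULI, 1723 in ULC and 2747 in control, a ratio of -0.96 (-1.11 to -0.80) for ULI to control. Sparcl1 (hevin, which promotes synapse formation) was at 8450 CPM in ULI, 4276 in ULC and 11613 in control, a ratio of -1.44 (-1.54 to -1.34) for ULC to control and -1.12 without mixed barcodes. Ptn (pleiotrophin, a growth factor) was at 1170 CPM in ULI, 748 in ULC and 2093 in control, a ratio of -1.49 (-1.74 to -1.24) for ULC to control.

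Receptor genes of ULC members lay below control. Of 14 measured receptors 1 was 2-fold higher and 7 lower than in control, with a median of -1.01. Without mixed barcodes 0 of 13 were higher and 4 lower, with a median of -0.61. Over all genes 11% were higher and 10.2% lower, and 10.1% and 13.8% without mixed barcodes. In ULI 0 of 15 were higher and 1 lower, with a median of -0.24, beside 6.28% and 8.54% of all genes. The median of this list over the other classes was -0.43 for ULC (range -0.79 to 0.31) and 0.03 for ULI. Ednrb (the endothelin B receptor) was at 1553 CPM in ULI, 675 in ULC and 1975 in control, a ratio of -1.55 (-1.81 to -1.30) for ULC to control and -1.12 without mixed barcodes. Gabbr2 (a subunit of the GABA-B receptor) was at 305 CPM in ULI, 146 in ULC and 515 in control, a ratio of -1.82 (-2.41 to -1.28). Gabrg1 (a GABA-A receptor subunit) was at 360 CPM in ULI, 136 in ULC and 427 in control, a ratio of -1.65 (-2.27 to -1.09). Grm3 (a metabotropic glutamate receptor of astrocytes) had 19 UMIs in ULI, 5 in ULC and 86 in control, a ratio of -2.48 (-4.13 to -1.20). These 4 genes stayed 2-fold lower in ULC without mixed barcodes, at -1.12, -1.45, -1.19 and -1.73.

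**Figure D4:**
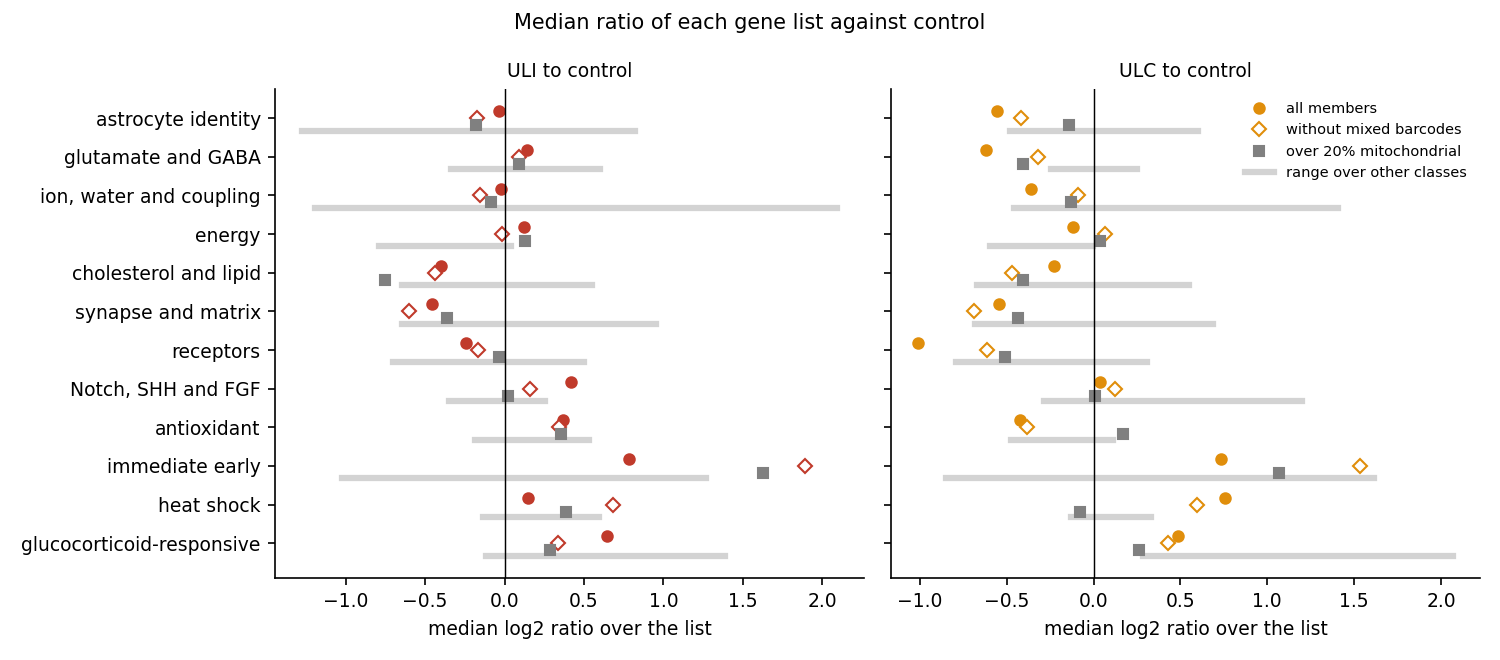
Median log2 ratio to control of each gene list in ULI and ULC, for all members (circles), without mixed barcodes (diamonds) and for barcodes over 20% mitochondrial (squares), with the range over the other cell classes as a grey bar. Of the lists drawn, immediate early genes lie highest in both libraries without mixed barcodes, at 1.89 in ULI and 1.53 in ULC, and receptor genes have a median of -1.01 in ULC for all members.

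Of 27 genes of the Notch, Sonic hedgehog and fibroblast growth factor pathways 18 were measured for ULI to control, with 2 higher and 2 lower and a median of 0.42, beside 6.28% higher and 8.54% lower over all genes. Outside this list, the fibroblast growth factor gene Fgf2, one of the 8 highest ratios for ULI to control, had 42 UMIs in ULI, 10 in ULC and 14 in control, a ratio of 2.65 (1.75 to 3.63) for ULI to control and 2.66 without mixed barcodes. On the list, Spry4, a feedback inhibitor of fibroblast growth factor signalling, was at 154 CPM in ULI, 102 in ULC and 37.7 in control, a ratio of 2.03 (1.29 to 2.81). Etv5, a transcription factor induced by that signalling, was at 26.2 CPM in ULI, 97.1 in ULC and 80.1 in control, a ratio of -1.61 (-2.90 to -0.52), beside -1.52 in other classes, and of -0.97 at a 10% mitochondrial limit. Adamts1, a secreted protease that was also among the 8 highest ratios, had 56 UMIs in ULI, 34 in ULC and 15 in control, a ratio of 2.96 (2.12 to 3.89) for ULI to control.

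The 8 largest ratios in each direction were set beside the values without mixed barcodes, where some genes no longer reached 50 UMIs. For ULI to control 5 of the 8 higher genes (Adamts1, Vim, Ttr, Fgf2 and Fos) and 2 of the 8 lower genes (Mfge8 and Grn) were still measured and 2-fold different without mixed barcodes. For ULC to control these were 2 of 8 higher genes (Ttr and Fosb) and 4 of 8 lower genes (Lxn, Ier3ip1, Adgra1 and Nnat). For ULI to ULC they were 6 of 8 higher genes (Neat1, Nnat, Rgs4, S100a10, Slc23a2 and Tmem135) and 0 of 8 lower genes. P2ry12, Cx3cr1 and C1qb, genes of microglia, were among the lowest ratios to control, and P2ry12 was at 16.4 CPM in ULI, 9.71 in ULC and 171 in control with mixed barcodes and at 11.5, 18.7 and 17.6 CPM without them. The precursor gene Tnr was at 13.1 CPM in ULI, 442 in ULC and 58.1 in control with mixed barcodes, and at 15.3, 65.5 and 5.88 CPM without them. All 93 Wif1 UMIs of ULC came from 1 barcode.

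Neat1, a nuclear long noncoding RNA, had 67 UMIs in ULI, 6 in ULC and 41 in control, a ratio of 2.91 (1.72 to 4.41) for ULI to ULC. Slc23a2, a vitamin C transporter, had 90 UMIs in ULI, 13 in ULC and 109 in control, a ratio of 2.22 (1.38 to 3.19) for ULI to ULC. ULC was the low library for Slc23a2. Neat1 was higher in ULI than in control, with a log2 ratio of 1.77. Its UMIs in ULC and control together were under the minimum for a pair of libraries, so Neat1 was not compared between ULC and control.

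Members carried hindbrain genes and none of the forebrain genes named here. The forebrain genes Emx1, Emx2, Lhx2, Otx1 and Six3 had 0 UMIs in members of every library, whereas Zic1 had 54 in ULI, 38 in ULC and 51 in control and Irx2 had 27, 15 and 55. Pax3, a transcription factor of dorsal neural tissue, had 40 UMIs in 18 ULI members, 28 in 9 ULC members and 37 in 16 control members. Its ratio to control was 1.17 (0.49 to 1.86) in ULI and 1.23 (0.46 to 1.97) in ULC, and 1.25 and 1.84 without mixed barcodes. Of 18 hindbrain genes 5 were measured, with 2 higher and 0 lower in ULI and 2 higher and 1 lower in ULC. The shares over all genes were 6.28% higher and 8.54% lower in ULI, and 11% and 10.2% in ULC.

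Gdf10 and Fabp7, genes shared with Bergmann glia, the radial astrocytes of the cerebellum, were low in ULC. Gdf10 (chr14:33923587-33937983), a BMP-family ligand, had 46 UMIs in 11 ULI members, 0 UMIs in ULC and 56 UMIs in 25 control members. With ULC set to a floor of 3 counts the ratio for ULC to control was -2.59 or below, and -1.97 or below without mixed barcodes. Fabp7, a fatty acid binding protein of radial glia, was at 934 CPM in ULI, 320 in ULC and 1168 in control, a ratio of 1.54 (1.15 to 1.95) for ULI to ULC. Nnat (neuronatin, chr2:157560078-157562522) was at 449 CPM in ULI, 68.0 in ULC and 755 in control, a ratio of -3.47 (-4.36 to -2.71) for ULC to control and 2.72 (1.93 to 3.63) for ULI to ULC. Thinned members with an Nnat UMI were 9.82% in ULI, 3.95% in ULC and 23.9% in control, and 29.5%, 7.89% and 53.4% unthinned, whereas microglia-like barcodes had 0.133%, 0% and 0.121% thinned. Of the 6 Bergmann glia genes 0 were 2-fold higher and 2 lower in ULC than in control, with and without mixed barcodes. Among all genes 11% were higher and 10.2% lower, and 10.1% and 13.8% without mixed barcodes.

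Besides the 6 rule markers, 20 genes that the study named in its account of MVN astrocytes were listed. Sox9, Gfap, Vim and Serpina3n among them were named with reference to earlier work. The study gave the rest as markers of an astrocyte subtype or as changed within a subtype, whereas ratios here are over all members. Since these genes were chosen on these libraries, the directions of the 20 genes as a set are no independent evidence. Of them 17 were measured in ULI to control, 5 higher and 2 lower, and 19 in ULC to control, 9 higher and 3 lower, where 6.28% and 11% of all genes were higher. Without mixed barcodes 6 were higher and 3 lower of 17 in ULI, and 5 higher and 3 lower of 15 in ULC. Efr3b, a protein that anchors a lipid kinase to the plasma membrane, was at 236 CPM in ULI, 146 in ULC and 61.2 in control, a ratio of 1.95 (1.36 to 2.55) for ULI to control with and without mixed barcodes. Efr3b was found in 39 of 112 ULI members, 12 of 76 ULC members and 19 of 176 control members.

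Some of the largest ratios were shared with other cell types. Ttr (transthyretin, made by choroid plexus) was at 311 CPM in ULI, 4034 in ULC and 47.1 in control, with ratios of 2.72 for ULI to control and 6.42 for ULC to control, and 5.37 for ULC without mixed barcodes. In 6 other classes the median Ttr ratio was 2.24 for ULI and 4.32 for ULC. The thinned share of members with a Ttr UMI was 14.3% in ULI, 52.6% in ULC and 2.27% in control, and that of microglia-like barcodes was 10.5%, 33.1% and 2.79%. Unthinned Ttr shares were 42.0%, 73.7% and 13.6% in members and 33.6%, 81.9% and 12.4% in microglia-like barcodes. Counting intervals of the thinned share were 8.39 to 22.2 in ULI members, 40.8 to 64.2 in ULC members and 0.623 to 5.72 in control members. In ULC the share of members was above that of microglia-like barcodes when thinned and below it when unthinned. Ttr was also limited by the member rule, and the part of free RNA in its level was not tested. Cst3 (cystatin C, a protease inhibitor) was at 3965 CPM in ULI, 6257 in ULC and 17969 in control, with ratios of -2.18 (-2.27 to -2.09) and -1.52 (-1.61 to -1.44), and other classes had medians of -1.89 for ULI and -0.46 for ULC.

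More of the lower genes in ULI than of the higher ones were 2-fold different in other cell types too. Among genes measured in members and in at least 3 other classes, 76 of the 238 lower in ULI than in control (31.9%) had an other-class median that was also 2-fold lower, against 11 of 191 higher genes (5.76%). For ULC to control these were 68 of 304 higher genes (22.4%) and 21 of 222 lower genes (9.46%). For ULI to ULC they were 0 of 136 higher genes and 71 of 180 lower genes (39.4%). How many of all measured genes had an other-class median 2-fold in the same direction was not counted. These shares therefore have no background beside them, and the gap between higher and lower genes is description only. The part that library-wide differences had in any single ratio was not tested.

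Set against the barcodes of the same library that exceeded the mitochondrial limit, members had nearly the same astrocyte profile and more immediate early RNA. For this comparison mitochondrially encoded genes were taken out of the totals and mixed barcodes were left out on both sides. Of 614 genes measured in all 3 libraries, 2 (0.326%) were 2-fold higher and 3 (0.489%) 2-fold lower in members in every library. The higher genes were Rasl11b, a small GTPase, with log2 ratios of 1.55 in ULI, 1.49 in ULC and 1.84 in control, and Id3, an inhibitor of bHLH factors, with 1.16, 1.04 and 1.05. The lower genes included Pygm, a glycogen phosphorylase, with -1.10, -1.07 and -1.05, and the myelin gene Mbp, with -2.75, -1.56 and -3.08. Mbp was at 125 CPM in ULI members against 842 CPM in barcodes over the limit, at 1053 against 3108 CPM in ULC and at 476 against 4036 CPM in control.

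The astrocyte identity list had a median ratio of members to barcodes over the limit of -0.11 in ULI, -0.26 in ULC and -0.02 in control, so these barcodes were alike in identity genes. Slc1a2 was at 12109 CPM in members and 16651 CPM over the limit in ULI, at 10270 and 13385 CPM in ULC and at 9261 and 11830 CPM in control, with ratios of -0.46, -0.38 and -0.35. The immediate early list was higher in members in each library, with medians of 0.79 in ULI, 1.09 in ULC and 0.56 in control over 10, 7 and 7 measured genes. Klf6, a zinc finger factor of this list, had ratios of 1.92 in ULI, 1.54 in ULC and 0.98 in control, and Fos had 1.10, 1.12 and 0.56. In the barcodes over the limit, mixed ones included, the summed immediate early list was also higher in the UL libraries, with 2564 CPM in ULI, 2169 in ULC and 896 in control. Of 8 genes measured between ULI and control in these barcodes, 6 were 2-fold higher in ULI, beside 6.9% of all 1565 genes measured.

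**Figure D5:**
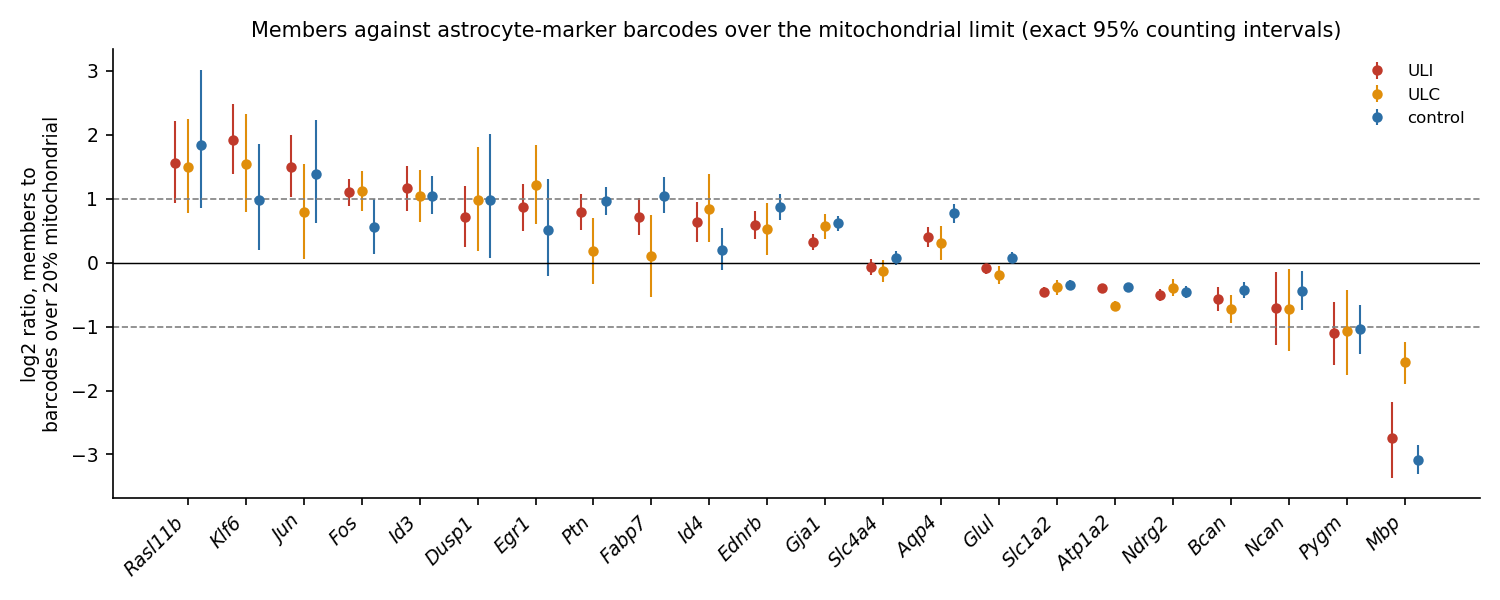
Log2 ratio of members to astrocyte-marker barcodes over 20% mitochondrial of the same library for named genes in ULI, ULC and control, with exact 95% counting intervals and dashed lines at 2-fold. Mitochondrially encoded genes are out of the totals and mixed barcodes are left out on both sides. Rasl11b and Id3 lie above 2-fold in all 3 libraries, and Pygm and Mbp below it.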

How the data were processed

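The deposited counts are whole UMIs for each gene in each barcode (28676 genes, 14876 barcodes, 57216827 UMIs in all), and for their production the submitters' processing notes name mm10, UMI-tools, CASAVA 1.8 and Seurat. Aligner, annotation and the calling of cells: not given in the sources used here. Barcodes are running numbers, so barcodes shared between libraries could not be counted. Total counts per member ranged between 527 and 40006 UMIs. PCR copies are merged by UMIs, and intervals (exact Poisson for CPM, exact binomial for shares and ratios) cover counting error only, not the spread between mice.

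The members, the 22 gene lists and the tests were chosen with earlier results of these data known. UMIs were summed over members per library and scaled to CPM, and 3 comparisons were made among genes with at least 50 UMIs in the pair of libraries. Where a library had 0 UMIs, 3 counts were put in its place and the ratio is a bound. No doublet caller was run, and barcodes with 3 or more of 6 markers of another class were left out as an alternative. Other classes are barcodes with 3 or more markers of that class, more than of any other, and under 3 astrocyte markers (microglia-like and 5 more). Shares of cells were compared after each barcode was thinned to 500 UMIs (seed 1).

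Genes named are the 6 rule markers, up to 8 of each list, those the study names, the 10 highest folds against other barcodes, and the 8 highest and 8 lowest ratios per comparison whose interval excludes no difference, with ratios of at most 30 genes per comparison in the report, besides the 6 genes of opposite direction in ULI and ULC. Rasl11b, Pygm and Mbp were named after their values were seen, and the other lower gene of that comparison is not reported here. Mitochondrial, ribosomal, Gm and Rik symbols were counted and not named. Gene positions (414 of 414 named genes found by symbol) come from GENCODE on GRCm38, whereas promoter windows are those of RefSeq. Ratios with their intervals were tested on simulated data. Software was Python 3.11.15 (scipy 1.17.1, numpy 2.4.6, matplotlib 3.10.9, pandas 2.3.3), and edgeR 4.0.16 and DESeq2 1.42.0 under R 4.3.3 gave scaling factors only. Alternatives covered the mitochondrial, marker, depth and gene limits, mixed barcodes, scaling, cell weights, thinning and the minimum of UMIs, and 2 alternatives on single barcodes were chosen after seeing the data.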

Additional observations from a re-analysis of the deposited data

Results flagged for a closer look

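Among the 414 named genes, 6 were picked whose ratio to control pointed one way in ULI members and the other way in ULC members. They had to be measured in both comparisons and reach 2-fold in ULI or ULC, with a smaller minimum size in the other. Genes that were not named were not searched, so 6 is no count over all genes. Both intervals of each gene lay away from 0, and the difference was not tested, since each condition has 1 library. Aldh1l1 had a log2 ratio to control of -2.30 in ULI and 0.90 in ULC. Ddit4 had -1.23 in ULI and 1.16 in ULC. Gdf10 had 0.78 in ULI and a bound of -2.59 in ULC, where no UMI was found. S100a10 had 0.82 in ULI and -1.49 in ULC, Slc23a2 had 0.79 and -1.44, and Tmem135 had 0.83 and -1.28. The other cell classes in which they were measured had a median for Ddit4 of -1.27 in ULI and 1.05 in ULC, for S100a10 of 0.98 and 1.94, for Slc23a2 of 0.88 and 0.36, and for Tmem135 of -0.02 and -0.35, and none of them measured Aldh1l1 or Gdf10. The 6 genes were picked by opposite signs both with and without mixed barcodes, so their signs without mixed barcodes are no further check. Without mixed barcodes Aldh1l1 was at -2.37 in ULI and 1.40 in ULC.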

How the results depend on the processing

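Counts of 2-fold genes moved with the filters. Of 80 named gene ratios 70 were at least 2-fold, and no alternative turned the direction of these 70. These ratios were kept for their size, some were picked as the largest, and the alternatives largely reuse the same barcodes. A turned direction was therefore unlikely beforehand, and its absence is no independent support. Between 61 and 70 of them were still 2-fold the same way under each alternative. These were 65 without mixed barcodes, 61 at a 10% mitochondrial limit and 61 after thinning. Turned directions were not counted for the ratios under 2-fold. Members numbered 118 at a 10% and 580 at a 30% mitochondrial limit. At 10%, 116 of 1367 genes were higher (8.49%) and 170 lower (12.4%) for ULI to control, 111 of 1284 higher (8.64%) and 159 lower (12.4%) for ULC to control and 106 of 808 lower (13.1%) for ULI to ULC. After thinning, where far fewer genes reach 50 UMIs, 17 were higher and 21 lower for ULI to control, 19 and 47 for ULC to control and 21 and 13 for ULI to ULC. A minimum of 20 UMIs gave 616 higher and 897 lower for ULI to control, 1012 and 877 for ULC to control and 616 and 763 for ULI to ULC. No minimum gave 4736 and 1681, 6199 and 1344, and 2532 and 4026. Without mixed barcodes 217 genes were higher for ULC to control and 99 lower for ULI to ULC, TMM factors gave 225 higher and 504 lower for ULC to control, and the mean over cells gave 330 higher for ULI to control, and the cause was not tested. The list of genes the study named had a median of -0.019 for ULI to control after thinning, against 0.86, and the reactive list had -0.0014 for ULI to ULC at 20 UMIs and -0.34 with no minimum, against 0.52. Of the 719 list medians recomputed 584 stayed close to the value reported, 132 moved and these 3 changed sign. No paired analysis was possible because each library was pooled over mice and each condition has 1 library.

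With 62 ULC members and 106939 UMIs once mixed barcodes are left out, genes under about 50 UMIs could not be compared, and reactive, interferon and hindbrain lists were measured through few genes. Members are those below a mitochondrial limit that removed different shares of each library, and dissection, dissociation and sequencing of a library cannot be told apart from its condition.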

Other observations

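Other gene groups of the members were described by the same counts. Over all genes 6.28% were higher and 8.54% lower for ULI to control, and 11% and 10.2% for ULC to control. Of 17 antioxidant genes 12 were measured for ULI to control, 0 higher and 1 lower with a median of 0.37. For ULC to control 11 were measured, 0 higher and 3 lower with a median of -0.42. Of the 27 genes of the Notch, Sonic hedgehog and fibroblast growth factor pathways 15 were measured for ULC to control, 1 higher and 0 lower with a median of 0.04. Hes1, a target of Notch, was at 331 CPM in ULI, 184 in ULC and 160 in control. Of 15 interferon response genes 2 were measured in each comparison to control, and the list summed to 436 CPM in ULI, 427 in ULC and 518 in control. Hemoglobin genes summed to 0 CPM in ULI, 5 in ULC and 0 in control.

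Cd44, a surface receptor for hyaluronan, had 41 UMIs in 13 ULI members, 0 UMIs in ULC and 6 UMIs in 3 control members, and was under the minimum of 50 UMIs in each pair of libraries. Genes of cytosolic ribosomal proteins summed to 3447 CPM in ULI, 7184 in ULC and 3852 in control, and to 3437, 3806 and 2990 CPM without mixed barcodes, and Slc9a3r1 (a scaffold protein of the membrane) was at 26.2 CPM in ULI, 184 in ULC and 56.5 in control, beside a median ratio of ULC to control of 1.76 in 2 other classes.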
